A study of Arabidopsis thaliana with 6 samples.

Results

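The 10 genes described here encode enzymes and regulators of aliphatic glucosinolate synthesis in Arabidopsis thaliana. They were chosen by gene identifier from the known pathway, with earlier results of these data known. All 10 were found among the 33557 genes of the authors' deposited table and were marked there as tested. They are the regulators MYB28 and MYB29, the side-chain elongation genes BCAT4, MAM1 and MAM3, and the core structure genes CYP79F1, CYP79F2, CYP83A1, SUR1 and SOT18. Poly(A) RNA was sequenced from whole seedlings 7 days old in 2 groups, with 3 biological replicates each: the cbe1 mutant and the wild-type accession Col0. Both groups grew on MS plates that held 1% sucrose, in long days with a night of 8 hours after 16 hours of light. CBE1, Conserved Binding of eIF4E 1, attaches in plants to eIF4E, the translation factor that holds the mRNA cap, and the comparison asks which transcripts differ when it is disrupted. The sources used here give neither the allele and kind of mutation in cbe1 nor the hour of harvest.

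Glucosinolates are sulfur-rich defence compounds of the cabbage order, stored intact and split by myrosinases when tissue is damaged. The aliphatic class is made from methionine, whose side chain is first lengthened in a cycle that resembles leucine synthesis. The lengthened amino acid is then turned into an aldoxime by cytochromes of the CYP79F type, oxidised by CYP83A1, joined to sulfur, cleaved by the lyase SUR1, glucosylated and finally sulfated. MYB28 and MYB29 are transcription factors that activate most of these genes.

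Transcript levels are given in FPKM, which scales fragments to the length of the transcript and to the number of fragments mapped, so that levels of different genes can be compared per length. For each gene the authors' deposited table has 1 FPKM per genotype and none per library. The spread between replicates is therefore not visible, and the depth is unknown. A gene was called when its q-value in the authors' deposited table, adjusted over 22303 tested genes, was below 0.05. A log2 fold change is the log2 of the cbe1 level over the Col0 level, with no pseudocount. Each approximate 95% interval takes the log2 fold change divided by the deposited statistic as its standard error. In whole seedlings, fewer cells that express a gene and less RNA per cell cannot be told apart.

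The CBE1 transcript (AT4G01290) had 4.48 FPKM in cbe1 and 13.8 FPKM in Col0, a log2 fold change of −1.62, and it was called lower (q = 1.41e-12 in the authors' deposited table). Over the whole table, calls numbered 738 higher in cbe1 and 363 lower, so that 67.0% were higher. The median tested gene with a mean of at least 1 FPKM had a log2 fold change of 0.17. With the deposited statistic recentred on that median gene, 30.8% of the calls were higher. Marker transcripts of both root and shoot tissue were detected, as a whole seedling should give. Of 8 root markers and 5 markers of guard cells and myrosin cells, which hold the myrosinases, 0 passed the Cuffdiff test, and 4 of the 13 had an unadjusted p below 0.05, all higher in cbe1, beside 12.5% of all tested genes higher and 4.2% lower on that count. The summed level of the root markers was 1642 FPKM in cbe1 and 2484 FPKM in Col0. PYK10, the β-glucosidase of root endoplasmic reticulum bodies, supplied most of it with 1583 FPKM in cbe1 and 2440 FPKM in Col0. By direction, 6 of the 8 root markers had a log2 fold change above 0 and 2 below it, with 5 above and 3 below the median gene. The Casparian strip gene CASP1 had 29.8 FPKM in cbe1 and 19.4 FPKM in Col0, and both PYK10 and CASP1 share their deposited locus with a neighbour. The guard cell and myrosin cell markers summed to 170 FPKM in cbe1 and 150 FPKM in Col0, and 5 of 5 had a log2 fold change above 0, with 3 above and 2 below the median gene. The most abundant were GRP-GC (AT1G22690), with 151 FPKM in cbe1 and 137 FPKM in Col0, and MYB60, with 7.25 FPKM in cbe1 and 4.67 FPKM in Col0. GRP-GC supplied most of that sum, and its deposited locus is also shared with a neighbour. The myrosinase genes TGG1 and TGG2, listed below with the breakdown genes, went the other way, with log2 fold changes of −0.32 and −0.12. TGG2 had 97.7 FPKM in cbe1 and 106 FPKM in Col0, and neither gene was called. The part of these markers in the results below was not tested.

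The 3 cytochrome P450 genes of the set share a stretch of letters near their starts. The motifs searched were chosen with earlier results of these data known. Promoter windows were taken from 250 bases before to 50 bases after each gene's start in the RefSeq annotation of TAIR10.1. They were searched on both strands for ACCTACC and ACCAACC, which are AC elements of the kind that R2R3 MYB factors bind, and for CACGTG, the G-box bound by MYC factors. The motifs do not overlap each other in these windows. ACCTACC stood in the windows of CYP79F1, CYP79F2 and CYP83A1 and in those of 0 of the other 7 genes, against 1.38% of 27443 promoters of protein-coding genes. Among the related lists below it stood in 1 more window, that of IPMI-SSU2, 1 of 6 other side-chain elongation genes, whose log2 fold change was 0.11. CACGTG stood in those of CYP83A1 and SUR1, against 7.68% of all promoters, and ACCAACC in 0 of the 10, against 3.29%. The 3 stretches of 30 bases around ACCTACC are shown because these genes are the core P450s whose levels are described below. Each is read in the direction in which the motif, in capitals, has the letters searched.
CYP79F1: aaacgtgattaccgtagtACCTACCcaaaa
CYP79F2: taaacgtggttACCTACCcaagagctcacc
CYP83A1: ataaacaccttcACCTACCcaacatccctc
They lie at chr1:5608702-5608731 on the plus strand, chr1:5604929-5604958 on the plus strand and chr4:7992482-7992511 on the plus strand of TAIR10.1. In CYP79F1 the match begins at position 39, counted from the RefSeq start. The deposited locus of CYP79F1 begins at another base than the RefSeq gene, so whether the match lies inside the gene depends on the gene model. In CYP79F2 it begins at position −104 and in CYP83A1 at position −71, counted back from the start, and in CYP83A1 it is on the strand opposite to the gene. The longest run shared by all 3 stretches is ACCTACCCAA, 10 bases long, in a search added after the stretches were seen. Because the run was picked from these stretches, its presence in all 3 was fixed by that choice. It occurs in 15 of the 27443 promoters (0.0547%), these 3 included. These matches are letters in a window and do not show that a factor binds there. CYP79F1 and CYP79F2 are neighbours whose coding sequences were identical at 91.9% of aligned bases, so their matches may not be independent. Whether the 3 genes hold the motif more often than other promoters was not tested.

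The 150 bases before the start of CYP79F2 (chr1:5604894-5605043, plus strand) and of CYP83A1 (chr4:7992430-7992579, minus strand), both in the direction of the gene, show the matches in place. Capitals mark ACCTACC in CYP79F2, and in CYP83A1 its reverse complement followed by CACGTG.
CYP79F2: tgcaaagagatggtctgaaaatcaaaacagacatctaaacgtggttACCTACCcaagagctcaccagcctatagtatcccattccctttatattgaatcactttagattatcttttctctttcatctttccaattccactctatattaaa
CYP83A1: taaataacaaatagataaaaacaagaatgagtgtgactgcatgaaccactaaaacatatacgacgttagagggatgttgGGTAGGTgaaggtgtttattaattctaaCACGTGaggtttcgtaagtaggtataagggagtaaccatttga

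Across the 10 genes, 1 was called lower and 0 were called higher in cbe1. Over all tested genes 1.63% were called lower and 3.31% higher, so these counts are close to the background. At an unadjusted p below 0.05 there was 1 gene in each direction, against 4.2% of all tested genes lower and 12.5% higher. The members' median log2 fold change was 0.08, with a range from −0.73 to 0.52, beside a median of 0.18 over all tested genes. With changes taken relative to the median gene, the members' median was −0.10. The summed level of the 10 genes was 289 FPKM in cbe1 and 296 FPKM in Col0. By role, 3 of 3 core P450 genes had a log2 fold change below 0, while 6 of the 7 other genes had one above 0. Over all tested genes 31.1% were below 0. The 3 P450 genes were below the median gene too, while of the 7 others 4 were above it and 3 below. This grouping was made after the values were seen and was not tested.

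**Figure D1:**
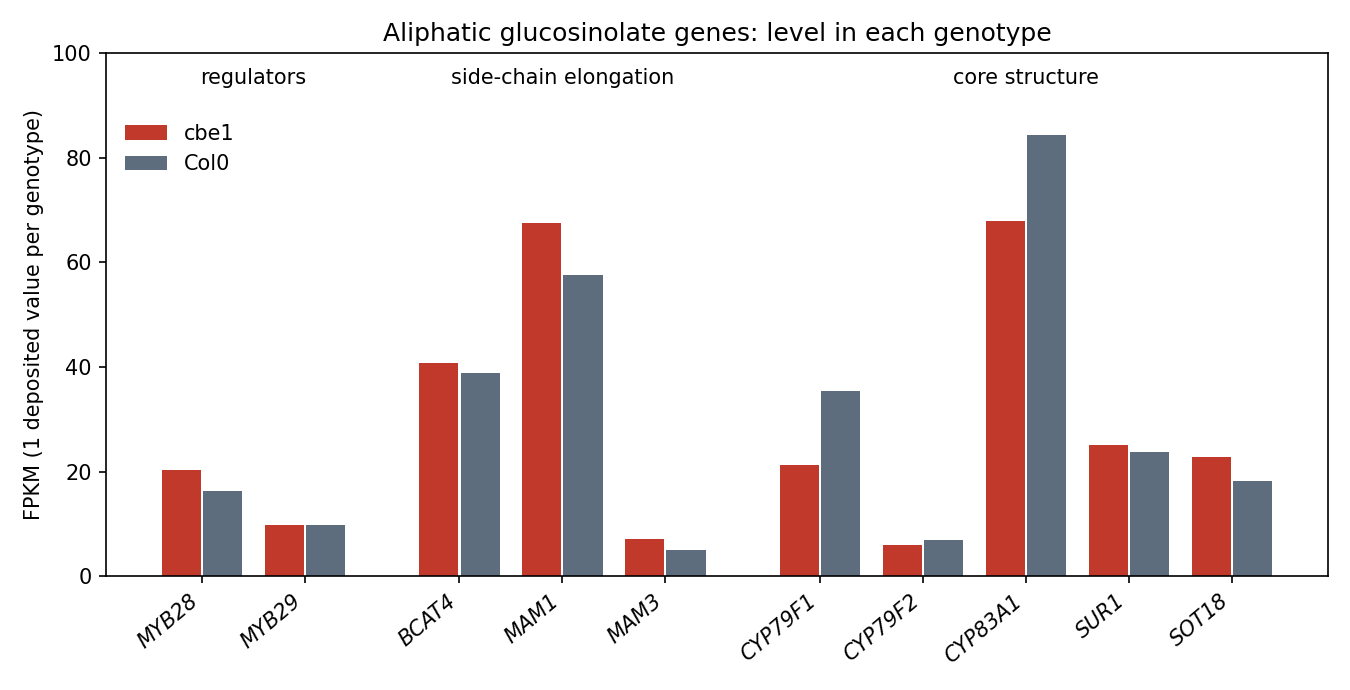
Level of each gene in FPKM on a linear axis that starts at 0, with the bar of cbe1 left of that of Col0, grouped by role. Each bar is the authors' single value for a genotype, so there are no error bars. The cbe1 bar is clearly lower for CYP79F1 (21.4 FPKM in cbe1 against 35.4 FPKM in Col0), and CYP83A1 and MAM1 are the most abundant genes in both genotypes.

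CYP79F1 (AT1G16410, chromosome 1, 5608807 to 5611426, TAIR10) fell in cbe1. This enzyme makes aldoximes from chain-elongated methionines of short and long chain, and so opens the core of the pathway. Its level was 21.4 FPKM in cbe1 and 35.4 FPKM in Col0, which is 1.66-fold lower in cbe1. On the log2 scale it fell by 0.73, with an approximate 95% interval from −1.08 to −0.37, and q = 0.00360 in the authors' deposited table. Relative to the median gene the log2 fold change was −0.90, and CYP79F1 was again the 1 member called lower, with 0 higher; that scaling called 2.99% of all tested genes lower and 1.33% higher. Of the 12129 tested genes with a mean of 4 to 100 FPKM, the range that holds all 10 members, 2.04% were called lower and 4.5% higher. In that range 3.35% of genes had a log2 fold change at or below that of CYP79F1.

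CYP79F2 (AT1G16400, chromosome 1, 5605159 to 5607473) lies next to CYP79F1 on the same strand and accepts only long-chain substrates. Its level was 5.91 FPKM in cbe1 and 6.97 FPKM in Col0, and it was not called (authors' deposited table, q = 0.662). The log2 fold change of −0.24 had an approximate interval from −0.68 to 0.20, which includes both no change and a fall nearly as large as that of CYP79F1. The difference between the log2 fold changes of CYP79F1 and CYP79F2 was −0.49, with an approximate interval from −1.05 to 0.08 that treats both estimates as independent. The data thus do not separate the changes of the neighbours. CYP79F1 was 3.61 times as abundant as CYP79F2 in cbe1 and 5.07 times in Col0, and their summed level was 27.3 FPKM in cbe1 and 42.3 FPKM in Col0.

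The coding sequences of CYP79F1 and CYP79F2, 1617 and 1614 bases long in RefSeq, were identical at 91.9% of aligned bases. Reads from one gene could have been counted for the other, so both values are uncertain to that extent. The longest identical run in that alignment is 100 bases and is printed to show where a short read cannot be assigned.
Shared by CYP79F1 and CYP79F2: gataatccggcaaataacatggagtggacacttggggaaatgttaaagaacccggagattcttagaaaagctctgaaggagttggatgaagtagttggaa
It lies at chr1:5609966-5610065 in CYP79F1 and at chr1:5606398-5606497 in CYP79F2, on the plus strand of TAIR10.1. Over the longest transcripts, 2% of the windows of 50 bases in CYP79F1 also occurred in CYP79F2, and 2.74% the other way. Most of each transcript thus differs somewhere in every 50 bases. The sources used here do not give the read length or how reads with several matches were treated.

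The genes on either side of this neighbouring pair were looked at in turn. OCT3, the nearest tested gene before CYP79F2 and named for an organic cation transporter, had 7.77 FPKM in cbe1 and 10.4 FPKM in Col0. The log2 fold change of OCT3, −0.42, was not called (authors' deposited table, q = 0.280). OCT6, the next tested gene on that side, had 1.32 FPKM in cbe1 and 1.22 FPKM in Col0. Its log2 fold change was 0.12 and was not called (authors' deposited table, q = 0.928). MC8, a metacaspase gene and the nearest tested gene after CYP79F1, was barely detected, with 0.334 FPKM in cbe1 and 0.393 FPKM in Col0. AT1G16430, the next one, had 9.51 FPKM in cbe1 and 8.43 FPKM in Col0.

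CYP83A1 (AT4G13770, chromosome 4, 7990485 to 7992311), which oxidises the aldoximes, was the most abundant of the 10 genes in both genotypes. It had 67.9 FPKM in cbe1 and 84.3 FPKM in Col0, a log2 fold change of −0.31 with an approximate interval from −0.65 to 0.03. It was not called (authors' deposited table, q = 0.362). Relative to the median gene it stood at −0.49, still not called at q = 0.0925, although the approximate interval from −0.83 to −0.15 lay below 0. A change would have had to reach 0.53 on the log2 scale to be called at the spread of this gene. The difference between CYP79F1 and CYP83A1 in log2 fold change was −0.42, with an approximate interval from −0.91 to 0.08, so these P450 genes were not separated either.

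SUR1 and SOT18 act later in the core pathway and were not called. SUR1 (AT2G20610, chromosome 2, 8877960 to 8880388), the C-S lyase that also serves indolic glucosinolates, had 25.2 FPKM in cbe1 and 23.8 FPKM in Col0. On the log2 scale this is a change of 0.08, with an approximate interval from −0.29 to 0.46. SOT18 (AT1G74090, chromosome 1, 27862909 to 27864193), a sulfotransferase of the final step, had 22.8 FPKM in cbe1 and 18.2 FPKM in Col0. The log2 fold change of SOT18 was 0.32, with an approximate interval from −0.06 to 0.70. Their q-values in the authors' deposited table were 0.897 for SUR1 and 0.424 for SOT18. The interval of SUR1 excludes a fall of the size measured for CYP79F1, as does that of SOT18.

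All 3 members of side-chain elongation had log2 fold changes above 0 as deposited, and 0 were called. BCAT4 (AT3G19710, chromosome 3, 6846969 to 6849582 in TAIR10.1), the aminotransferase that feeds methionine into elongation, had 40.8 FPKM in cbe1 and 38.8 FPKM in Col0. For BCAT4 the log2 fold change was 0.07, with an approximate interval from −0.28 to 0.42, and −0.10 relative to the median gene. Its deposited locus is shared with AT3G19700, which was listed at 0.0474 FPKM in cbe1 and 0.113 FPKM in Col0.

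MAM1 and MAM3 are neighbouring genes for methylthioalkylmalate synthases, which add the carbon in each round of elongation. MAM1 (AT5G23010, chromosome 5, 7703092 to 7706896), which serves short chains, had 67.5 FPKM in cbe1 and 57.6 FPKM in Col0, a log2 fold change of 0.23 with an approximate interval from −0.11 to 0.57. MAM3 (AT5G23020, chromosome 5, 7718121 to 7721839), which can serve all chain lengths, had 7.09 FPKM in cbe1 and 4.94 FPKM in Col0. The resulting log2 fold change of 0.52 was the highest of the 10, with an approximate interval from 0.06 to 0.99. It was not called over all genes (p = 0.0284 and q = 0.222 in the authors' deposited table), and relative to the median gene the log2 fold change was 0.35, with an interval from −0.12 to 0.82. MAM1 and MAM3 were identical at 84.2% of aligned coding bases and shared 0% of their windows of 50 bases. CYP79F1 and MAM3 differed in log2 fold change by −1.25, with an approximate interval from −1.84 to −0.66. They are the lowest and the highest of the 10, chosen after their values were seen, so this gap is a description only.

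Levels of the regulators were not called as changed. MYB28 (AT5G61420, chromosome 5, 24689151 to 24691095), the main activator of the aliphatic genes, had 20.3 FPKM in cbe1 and 16.2 FPKM in Col0. For MYB28 the log2 fold change was 0.32, with an approximate interval from −0.14 to 0.78. MYB29 (AT5G07690, chromosome 5, 2446764 to 2448543), which adds to this activation, had 9.74 FPKM in cbe1 and 9.83 FPKM in Col0. For MYB29 it was −0.01, with an approximate interval from −0.43 to 0.40. Their q-values in the authors' deposited table were 0.540 for MYB28 and 0.987 for MYB29. Relative to the median gene MYB28 stood at 0.15, with an approximate interval from −0.31 to 0.61, and MYB29 at −0.19, with one from −0.60 to 0.23. Moderate falls of either regulator relative to other genes therefore are not excluded. MYB76, the related gene beside MYB29, was lower in level, at 2.17 FPKM in cbe1 and 1.62 FPKM in Col0, and it was not called.

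**Figure D2:**
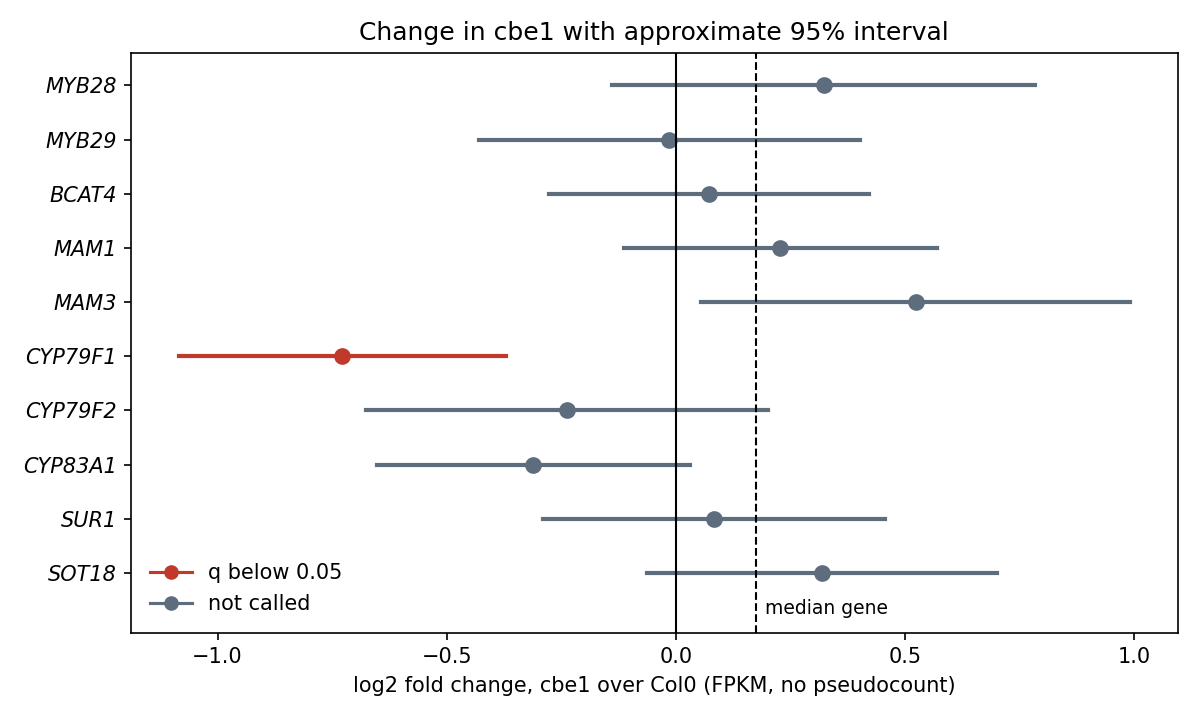
Log2 fold change of cbe1 over Col0 for each of the 10 genes (points) with the approximate 95% interval from the deposited statistic (lines), by role from top to bottom. The dashed line is the median tested gene at 0.17. CYP79F1, in red, is the called gene, and its interval from −1.08 to −0.37 lies wholly below 0, while that of MAM3 lies above 0 without a call.

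Changes that would have been called ranged between genes. At the spread implied for each gene, the smallest log2 fold change that would have passed ran from 0.53 for MAM1 and CYP83A1 to 0.72 for MAM3. That corresponds to 1.44-fold and 1.65-fold. A missing call alone does not exclude changes below those sizes, and the interval given for each gene is the closer limit. From high to low, the levels in cbe1 ran CYP83A1, MAM1, BCAT4, SUR1, SOT18, CYP79F1, MYB28, MYB29, MAM3 and CYP79F2. In Col0 the order was CYP83A1, MAM1, BCAT4, CYP79F1, SUR1, SOT18, MYB28, MYB29, CYP79F2 and MAM3. CYP79F1 thus stood at rank 6 in cbe1 and rank 4 in Col0, and MAM3 and CYP79F2 exchanged the lowest ranks. With no value per library, the order of neighbouring levels within a genotype cannot be judged against replicate spread.

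**Figure D3:**
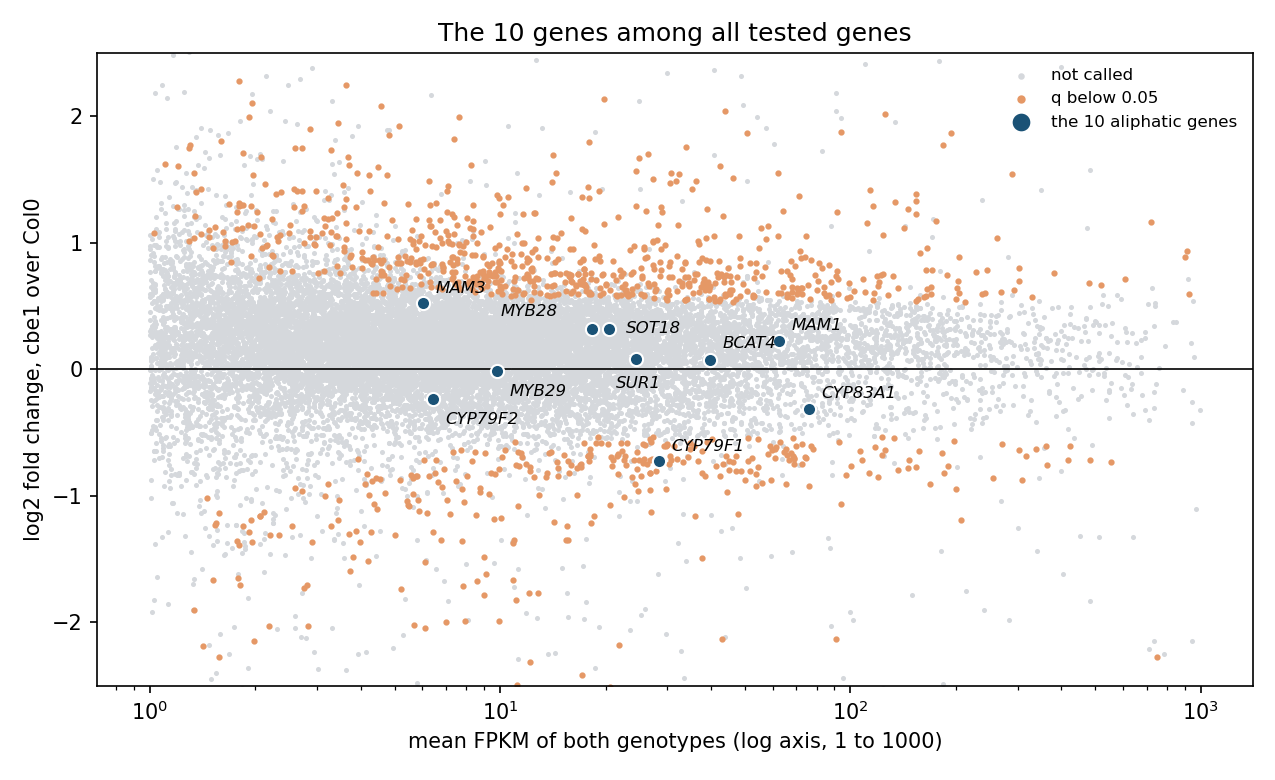
Log2 fold change of cbe1 over Col0 against mean FPKM (log axis) for tested genes with a mean of 1 to 1000 FPKM, with called genes in orange and the 10 aliphatic genes in blue. Of the 18311 genes in this range, 149 lie beyond the vertical axis. CYP79F1 is in the band of called genes below 0, and the other 9 genes are in the grey band of genes not called.

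The remaining genes of aliphatic synthesis had 0 calls by the Cuffdiff test, beside 3.31% of all tested genes called higher and 1.63% lower. Of 22 listed, 20 were tested; 15 had a log2 fold change above 0 and 5 below it, with a median of 0.13 and a range from −0.27 to 0.52. Of these 20 genes, 8 were above the median gene and 12 below it. At an unadjusted p below 0.05 there were 1 elongation gene and 1 modification gene, both higher, beside 12.5% of all tested genes higher. IPMI-LSU1, the large subunit of the isomerase of chain elongation, had 90.0 FPKM in cbe1 and 78.2 FPKM in Col0. Its small subunit IPMI-SSU2 had 64.0 FPKM in cbe1 and 59.3 FPKM in Col0. In the core pathway, the glutathione transferase gene GSTU20 had 217 FPKM in cbe1 and 196 FPKM in Col0, and the peptidase gene GGP1 had 73.0 FPKM in cbe1 and 62.0 FPKM in Col0. For modification of the side chain, the hydroxylation gene GS-OH had 144 FPKM in cbe1 and 130 FPKM in Col0, and the S-oxygenase gene FMO-GSOX5 had 14.8 FPKM in cbe1 and 10.5 FPKM in Col0. The deposited locus of FMO-GSOX5 overlaps that of a neighbour. The missing calls do not show that the fall of CYP79F1 was absent from every gene of this list. AOP1, picked after its values were seen, would have needed a log2 fold change of 1.32 to be called. Its approximate interval, from −1.13 to 0.58, includes a fall of the size measured for CYP79F1, and its deposited locus overlaps that of a neighbour.

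Indolic glucosinolates are made from tryptophan by a parallel route with its own P450 genes. Of 15 tested genes 0 were called by the Cuffdiff test, beside 3.31% of all tested genes called higher and 1.63% lower. In each direction 1 of the 15 had an unadjusted p below 0.05. Over all tested genes 12.5% were higher and 4.2% lower at that p. Their median log2 fold change was 0.13. The glutathione transferase genes GSTF9 (596 FPKM in cbe1, 469 FPKM in Col0) and GSTF10 (237 FPKM in cbe1, 231 FPKM in Col0) were the most abundant. CYP79B3, which makes the aldoxime of this route as CYP79F1 does in the aliphatic one, was singled out after its values were seen. It had 13.8 FPKM in cbe1 and 19.2 FPKM in Col0 (log2 −0.48; authors' deposited table, q = 0.127). Relative to the median gene it was the 1 gene of the list called lower (q = 0.0154), beside 2.99% of all tested genes on that scaling. Its paralogue CYP79B2 had 10.6 FPKM in cbe1 and 10.8 FPKM in Col0.

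Leucine synthesis uses paralogues of the elongation enzymes, and 1 of 7 tested genes was called higher, beside 3.31% of all tested genes. IPMI-SSU1, the small subunit gene assigned to leucine synthesis, had 87.6 FPKM in cbe1 and 57.9 FPKM in Col0 (log2 0.60, q = 0.0342 in the authors' deposited table). That call was lost relative to the median gene (log2 0.42, q = 0.250). At an unadjusted p below 0.05 there were 4 of the 7, all higher, beside 12.5% of all tested genes. Set against the median gene, 5 of the 7 were above and 2 below. The list's median log2 fold change was 0.44, beside 0.16 for the other elongation genes of the aliphatic route. Whether these lists differ was not tested.

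Among 9 other regulators 1 was called, beside 3.31% of all tested genes called higher and 1.63% lower. This was OBP2, which rose. It encodes a DOF transcription factor that acts on glucosinolate genes, and had 10.2 FPKM in cbe1 and 5.12 FPKM in Col0 (log2 0.99, q = 0.0139 in the authors' deposited table). Relative to the median gene the change was 0.82 and was no longer called (q = 0.0714). Of the glucosinolate transporters 0 of 3 passed the Cuffdiff test, and 1 had an unadjusted p below 0.05, higher in cbe1. Over all tested genes 12.5% were higher and 4.2% lower on that count. GTR1 had 12.6 FPKM in cbe1 and 8.86 FPKM in Col0, and GTR2 had 10.5 FPKM in cbe1 and 7.94 FPKM in Col0; both share their deposited locus with a neighbour. Of 14 sulfate assimilation and activation genes, which supply reduced sulfur and the sulfate donor, 0 were called by the Cuffdiff test. In this list 2 had an unadjusted p below 0.05, both higher, beside the same 12.5% of all tested genes. APS1 had 99.3 FPKM in cbe1 and 101 FPKM in Col0, and GSH1 had 68.2 FPKM in cbe1 and 59.3 FPKM in Col0.

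Breakdown genes held a call in each direction among 15 tested, beside 3.31% of all tested genes called higher and 1.63% lower. ESM1, which favours isothiocyanates over nitriles when glucosinolates are split, rose to 96.3 FPKM in cbe1, against 52.0 FPKM in Col0. This rise of 0.89 on the log2 scale had q = 6.04e-05 in the authors' deposited table. ESP, the epithiospecifier protein, which steers the products towards nitriles, fell to 17.4 FPKM in cbe1, against 28.1 FPKM in Col0. ESP fell by 0.69 on the log2 scale, with q = 0.0172 in the authors' deposited table. Relative to the median gene both calls were kept, with log2 fold changes of 0.71 for ESM1 and −0.86 for ESP. That scaling called 1.33% of all tested genes higher and 2.99% lower. At an unadjusted p below 0.05 the list held 3 genes higher and 1 lower, beside 12.5% and 4.2% of all tested genes. The 3 higher were ESM1 and the nitrile-specifier genes NSP5 and NSP4, and the 1 lower was ESP. NSP5 (log2 0.52, q = 0.0583) and NSP4 (log2 0.41, q = 0.176 in the authors' deposited table) were not called. The myrosinase TGG1, the most abundant gene of this list, had 616 FPKM in cbe1 and 769 FPKM in Col0 and was not called.

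**Figure D4:**
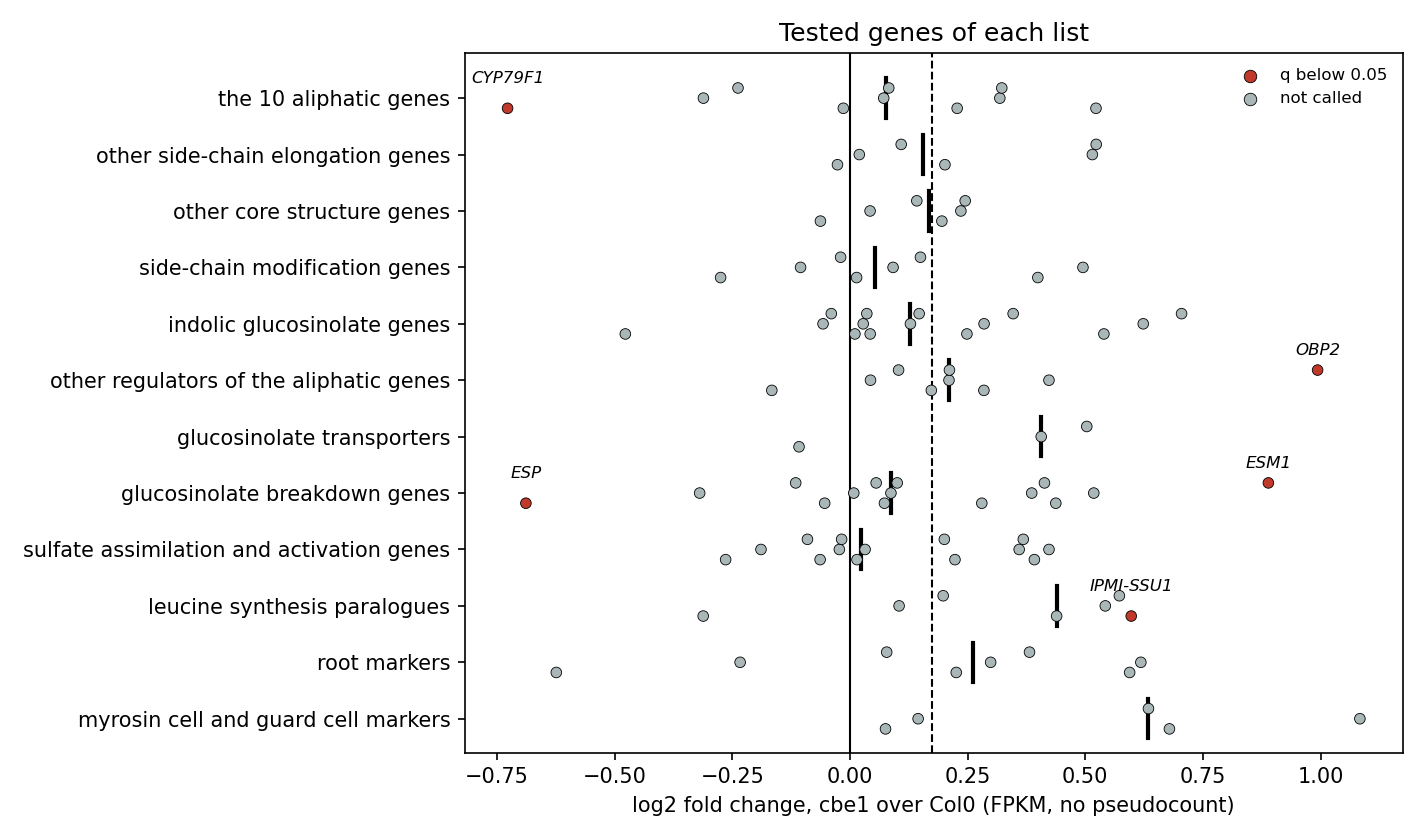
Log2 fold change of cbe1 over Col0 for each tested gene (points) of the 10 aliphatic genes and of the related lists, with the list median as a black bar, called genes in red with their names, and the median tested gene as a dashed line. Called genes are CYP79F1 and ESP below 0, and OBP2, ESM1 and IPMI-SSU1 above 0.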

How the data were processed

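Poly(A) RNA libraries of 3 cbe1 and 3 Col0 samples were processed by the authors. Per the submitters' processing notes, TopHat and Cuffdiff were used on TAIR10, with no versions. The deposited FPKM are 1 value per gene and genotype. The deposited test statistic is a score whose sign is opposite to the fold change. The deposited p-value is what a normal distribution gives for that statistic on both sides, to within 2.74e-06 for the 21932 tested genes above 0 in both genotypes. The deposited q-value is its Benjamini-Hochberg adjustment. The deposited log2 fold change was recomputed from the FPKM.

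Standard errors are the log2 fold change divided by the statistic, which assumes that the statistic was formed that way. Recentring subtracted the median log2 fold change of tested genes with a mean of at least 1 FPKM before that division. Deposited loci are printed counted from 1, on TAIR10. Sequences and gene structures were read from RefSeq's TAIR10.1 genome with its own annotation, where 32810 of the 33557 identifiers matched. All 10 members and all lists, motifs and tests were chosen with earlier results of these data known. Genes named from the other lists are the called ones or, in lists with none, the 2 most abundant; any other was chosen after its values were seen, as were the neighbours on the chromosome. Alternatives were recentring, a q-value of 0.01, minimum means of 1 and 10 FPKM, and pseudocounts of 1 and 0.1. Python 3.11.15 with pandas 2.3.3 and scipy 1.17.1 was used.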

Additional observations from a re-analysis of the deposited data

How the results depend on the processing

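Recentring on the median gene gave 296 higher and 666 lower calls over all tested genes, and a q-value threshold of 0.01 gave 355 higher and 207 lower, against 738 and 363 as deposited. In all 4 alternatives that recompute calls (recentring, q-value below 0.01, minimum means of 1 and of 10 FPKM), 1 of the 10 members, CYP79F1, was called lower and 0 were called higher, although the minimum of 10 FPKM left 7 members. Recentred, BCAT4 came to −0.10 and SUR1 to −0.092 on the log2 scale, and the members' median to −0.10; the sign changed because 0.17 is subtracted from every gene. Among related genes, the calls of OBP2 and IPMI-SSU1 were lost when recentred, and those of OBP2, IPMI-SSU1 and ESP at a q-value of 0.01. Pseudocounts of 1 and 0.1 turned no direction among the members. Leaving out a library was not run, since the table holds no value per library. No paired analysis was possible because the columns carry no replicate numbers. Depth is unknown, and the intervals rest on the deposited statistic.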
